A study of Mus musculus with 20 samples.

Results

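The genes described here are 50 protein-coding genes that make ribosomes: nucleolar proteins, the proteins of small nucleolar ribonucleoprotein particles, the RNA polymerase I machinery and the assembly factors of both ribosomal subunits. They were named by symbol in a list whose rule used no measured value, although the list was drawn up with earlier results of these data known. Each was represented by its longest listed transcript, and the 50 stood among 23992 gene symbols in the count tables. RNA was sequenced from mouse CD8+ T cells, all of them wild-type cells of the C57BL/6J strain isolated by negative selection from the spleens of mice aged 6 to 8 weeks. Every culture, controls included, had first been activated for 48 h with plate-bound antibody to CD3 and soluble antibody to CD28 and then rested overnight. In experiment 1 the cells were next left without cytokine or given, for 24 h, 100 pM or 1 nM of mIL-21 (mouse interleukin-21) or of 21h10, a designed protein that mimics interleukin-21. Experiment 2 used doses of 10 nM and 100 nM, with unstimulated cells of its own. Each of the 5 groups per experiment had 2 libraries, 20 in all. The labels call them duplicates without naming mice or pools. The study's methods state in general that RNA replicates came from separate tissue preparations or donors, but nothing ties a library to an animal, so p-values measure the spread between these libraries, which may be partly technical.

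Ribosomes are built in the nucleolus. RNA polymerase I transcribes one long precursor RNA there, and small nucleolar ribonucleoproteins (snoRNPs) guide its chemical modification: box C/D particles direct ribose methylation and H/ACA particles direct the conversion of uridine to pseudouridine. Many further factors fold, cut and assemble the precursor into the small and the large ribosomal subunit. T cells are known to enlarge their nucleoli and to make ribosomes rapidly after activation, and the transcription factor Myc, which binds the DNA sequence CACGTG (the E-box), is known to drive many of these genes.

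Counts were scaled to a common library total (CPM) with TMM, a method that assumes most genes keep their share of the RNA. CPM serves below for 1 gene across libraries, and reads per kilobase of transcript scaled to the mapped reads of the library (RPKM), as deposited, for levels of different genes. All values are relative to the other transcripts of the same library. Fewer cells of a type and less RNA per cell cannot be told apart in such bulk samples. Reads on genes ranged from 36829350 to 94079673 per library in experiment 1 and from 27074399 to 43303144 in experiment 2. All 50 members passed the filter on low counts in both experiments, among 13974 genes tested in experiment 1 and 13772 in experiment 2. Duplicates differed by more than counting noise in every group, with a chi-square per gene of 2.66 in the closest pair (100 pM mIL-21) and 35.5 in the widest (unstimulated cells of experiment 2). Over the members alone it was 1.74 and 90.9 in these pairs. The widest pair is shared by every comparison with unstimulated cells in experiment 2. With 2 libraries a group an exact permutation test of a single gene cannot go below p = 0.333, so the tests below draw on the spread of all genes and groups.

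Markers of CD8+ T cells were abundant in every library. Cd8a, which encodes a chain of the CD8 co-receptor, was at 382 and 383 CPM in unstimulated cells of experiment 1, while Cd4 was at 3.39 and 3.83 CPM. Of the 8 markers listed for CD8 T cells 7 were found in the table, and their summed level was 1136 to 1169 RPKM without and 1266 to 1742 RPKM with cytokine in experiment 1, and 1424 to 1546 and 1397 to 1593 RPKM in experiment 2. The 3 markers of CD4 T cells summed to 5.25 to 5.33 RPKM without and, without overlap, 10.7 to 12.7 with cytokine in experiment 1, and to 4.66 to 5.79 and 5.27 to 8.25 in experiment 2. The 3 of NK cells summed to 0.453 to 0.492 RPKM without and 0.228 to 0.855 with cytokine in experiment 1, and to 0.857 to 1.03 and 0.258 to 0.830 in experiment 2. The 4 of erythroid cells, none of which passed the filter, summed to at most 0.449 RPKM in any library. The 5 B cell markers summed to 7.23 to 7.34 RPKM without and 3.97 to 10.5 with cytokine in experiment 1, and to 6.25 to 8.30 and 3.09 to 4.34 in experiment 2. Myeloid markers, 5 of 6 found and 2 past the filter, summed to 0.397 to 0.406 RPKM without and 3.58 to 14.2 with cytokine in experiment 1, and to 1.08 to 1.27 and 6.73 to 17.5 in experiment 2. Most of that rise was Itgam, an integrin chain that activated CD8 T cells are also known to carry, at 0.670 and 0.836 CPM in unstimulated cells of experiment 1 and 81.1 and 76.1 CPM after 1 nM 21h10. Csf1r was listed at 0 in the unstimulated and Lyz2 in the cytokine libraries of experiment 2. The part of these cells in the results below was not tested.

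In experiment 1 nearly the whole set fell with either cytokine. Of the 50 members, 50 were lower at an adjusted p under 0.05 after 100 pM mIL-21, 49 after 1 nM mIL-21, 50 after 100 pM 21h10 and 49 after 1 nM 21h10 (edgeR quasi-likelihood test, Benjamini-Hochberg adjustment over all genes tested). Among all genes 39.4%, 40.3%, 41.3% and 42.1% were called lower in these comparisons. No member was higher except 1, Rrp1b, after 1 nM 21h10. The genes called higher made up 38.3%, 39.9%, 40.2% and 38.3% of all genes. The members' median log2 fold change was -1.57, -1.76, -1.72 and -1.69 in the same order, which is 2.96-fold, 3.39-fold, 3.29-fold and 3.22-fold lower. The median over all genes lay between -0.04 and 0.00. All 4 comparisons share the same 2 unstimulated libraries.

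The members' share of the reads on genes, which is taken without TMM factors, also fell. It was 1.496% and 1.47% in the unstimulated libraries of experiment 1 and between 0.555% and 0.625% in the 8 libraries with cytokine, so the groups did not overlap. In 49 of 50 members each of the 8 cytokine libraries lay below both unstimulated libraries in CPM, the exception being Rrp1b; the same was true of 36.5% of all genes tested. In experiment 2 the share was 0.870% and 0.974% without cytokine, 0.680% and 0.598% after 10 nM mIL-21, 0.722% and 0.673% after 100 nM mIL-21, 0.699% and 0.728% after 10 nM 21h10, and 0.819% and 0.820% after 100 nM 21h10. The unstimulated cells of experiment 2 thus started from a lower share than those of experiment 1, and all 8 cytokine libraries lay below them. Npm1 and Ncl, the most read members, were split off after the data had been seen. Of Npm1, Ncl and the sum of the other 48 members, only Npm1 showed this lack of overlap in experiment 2. It took 0.256% and 0.314% of the reads on genes without cytokine and 0.118% to 0.200% with it. Ncl overlapped, at 0.156% and 0.189% without and 0.0995% to 0.175% with cytokine. The other 48 members together took 0.457% and 0.471% of the reads without cytokine and 0.380% to 0.459% with it, where 1 library with 100 nM 21h10 lay between the controls, whereas in experiment 1 they took 0.872% and 0.869% without and 0.252% to 0.302% with cytokine.

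**Figure D1:**
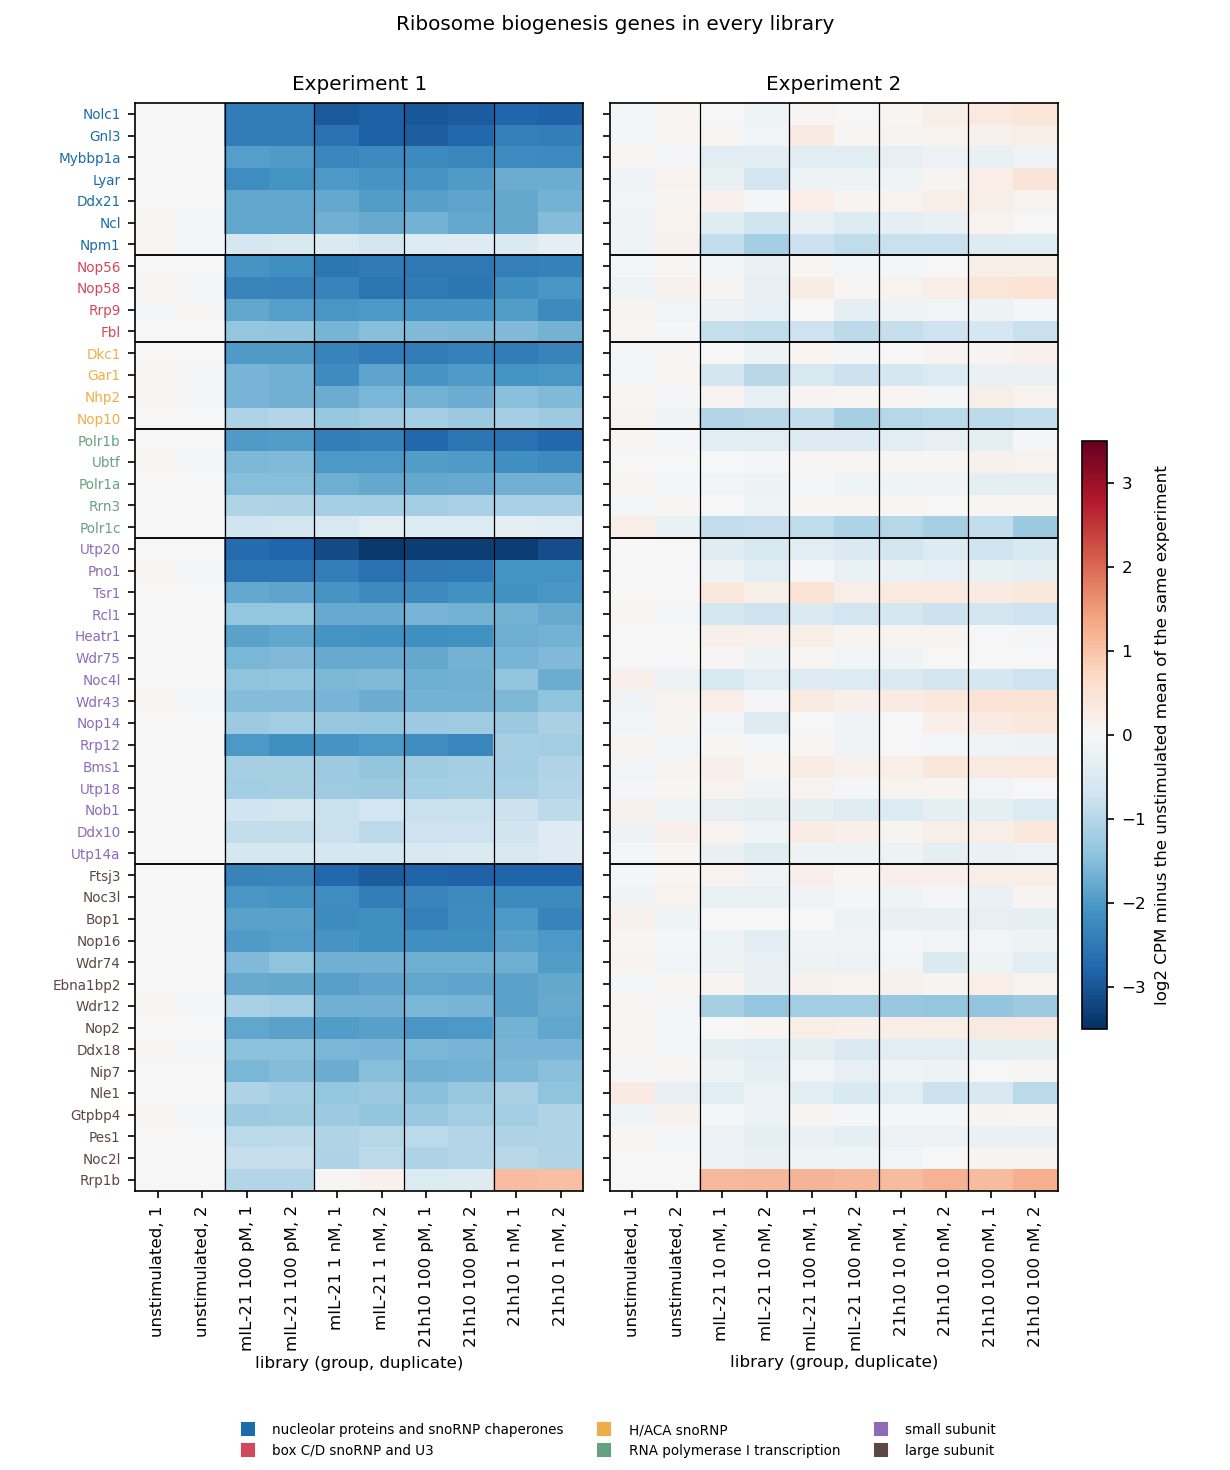
Each column is 1 library and each row 1 of the 50 members, grouped by class (colour of the symbol). Colour gives the log2 CPM minus the mean of the 2 unstimulated libraries of the same experiment. In experiment 1 all members but Rrp1b are blue in all 8 cytokine libraries; in experiment 2 most rows are near white, Wdr12, Polr1c, Nop10, Npm1 and Fbl stay blue and Rrp1b is red.

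Sequence was examined because the members moved together. The RefSeq promoter table (GRCm38.p6, from 250 bases before to 50 bases after each start) held 55 promoters for 46 of the 50 members. CACGTG, which reads the same on both strands, occurred in 10 of these 46 genes (21.7%), in 11.55% of the 10254 genes tested in experiment 1 that have a promoter there, and in 8.09% of all 27025 genes with one. CCGGAAG, a site that ETS factors are known to bind, was searched on both strands and does not contain the E-box. It occurred in 16 of 46 members (34.8%), in 19.2% of the tested genes and in 9.93% of all genes. A match is a description of the letters in this window. In 3 member promoters a CACGTG lay upstream of the start and in 7 it lay only in the 50 bases after it. The 250 upstream bases of those 3 are shown with the motif in capitals, beside those of Rrp1b, the member that went its own way. Rrp1b has 2 promoters in the table, neither of which holds the motif, and the one at its annotated gene start is shown. Nop2 methylates large subunit RNA, Utp18 is a small subunit factor and Rrn3 brings RNA polymerase I to its promoter.
Nop2 (chr6:125131633-125131882, plus strand): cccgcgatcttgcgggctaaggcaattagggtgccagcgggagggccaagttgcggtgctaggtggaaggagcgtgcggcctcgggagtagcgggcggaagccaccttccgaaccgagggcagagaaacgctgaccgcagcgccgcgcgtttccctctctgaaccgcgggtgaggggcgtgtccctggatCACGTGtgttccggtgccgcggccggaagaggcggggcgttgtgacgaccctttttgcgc
Utp18 (chr11:93885767-93886016, minus strand): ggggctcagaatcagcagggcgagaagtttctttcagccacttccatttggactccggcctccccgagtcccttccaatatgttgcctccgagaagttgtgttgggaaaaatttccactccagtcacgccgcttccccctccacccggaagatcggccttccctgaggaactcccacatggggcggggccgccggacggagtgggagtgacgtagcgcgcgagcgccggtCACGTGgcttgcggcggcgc
Rrn3 (chr16:13780449-13780698, plus strand): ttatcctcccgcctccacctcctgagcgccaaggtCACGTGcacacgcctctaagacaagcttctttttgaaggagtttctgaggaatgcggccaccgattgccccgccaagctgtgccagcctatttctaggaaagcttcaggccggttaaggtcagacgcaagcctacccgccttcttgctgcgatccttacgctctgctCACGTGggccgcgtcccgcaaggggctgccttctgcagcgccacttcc
Rrp1b (chr17:32035912-32036161, plus strand): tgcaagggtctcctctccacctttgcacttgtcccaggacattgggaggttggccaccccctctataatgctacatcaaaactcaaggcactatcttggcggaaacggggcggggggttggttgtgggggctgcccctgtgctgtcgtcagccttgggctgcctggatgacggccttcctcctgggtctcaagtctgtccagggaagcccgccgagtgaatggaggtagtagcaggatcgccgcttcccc
The motif begins 60 bases before the listed start in Nop2, 20 before it in Utp18, and 215 and 48 before it in Rrn3. The bases after the start were found early in a GENCODE transcript of the gene for 43 of the 55 member promoters. Utp18 was among these, and Nop2 and Rrn3 were not, so the positions in the latter rest on the listed start alone. The mean response to cytokine in experiment 1 had a median log2 fold change of -1.72 over the 10 members with the motif and -1.67 over the 36 without it, which are close to each other. In experiment 2 the corresponding medians were -0.16 and -0.13.

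Nucleolar proteins and snoRNP chaperones held the most abundant members. Per length, Npm1 was highest, at 1986 and 1937 RPKM in the unstimulated libraries of experiment 1, followed by Ncl at 299 and 292 and Nop56 at 208.8 and 209.7, with no overlap between these neighbours. Nle1, a large subunit factor, was the lowest of the 50 at 12.4 and 12.9 RPKM. All 7 proteins of this class fell in all 4 comparisons of experiment 1, with class medians of -2.04 to -1.73 on the log2 scale.

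Nolc1, a chaperone that carries snoRNPs (chr19:46075847-46085543 in GRCm38), was at 347 and 344 CPM without cytokine, 63.3 and 63.7 after 100 pM mIL-21, 45.4 and 47.4 after 1 nM mIL-21, 44.4 and 45.5 after 100 pM 21h10 and 50.6 and 48.7 after 1 nM 21h10. Every cytokine library lay far below both controls. After 1 nM 21h10 the fall was 6.95-fold, the largest of the class in that comparison (log2 fold change -2.80, SE 0.05, edgeR adjusted p = 2.79e-18). Gnl3, the nucleolar GTPase nucleostemin, was at 189.7 and 184 CPM without cytokine, 34.5 and 34.3 after 100 pM mIL-21, 30.7 and 25.6 after 1 nM mIL-21, 25.3 and 27.8 after 100 pM 21h10 and 35.6 and 34.9 after 1 nM 21h10. It was lowest after 100 pM 21h10, at a log2 fold change of -2.81 (SE 0.07). Mybbp1a, a nucleolar partner of Myb, was at 531 and 535 CPM without cytokine, 140.8 and 134.6 after 100 pM mIL-21, 109 and 113 after 1 nM mIL-21, 113 and 109.8 after 100 pM 21h10 and 117 and 113 after 1 nM 21h10. Its 4 log2 fold changes were -1.95, -2.26, -2.26 and -2.21, in the order 100 pM and 1 nM mIL-21, then 100 pM and 1 nM 21h10, which is kept below.

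Ncl, nucleolin, binds the nascent precursor RNA. Its level was 2957 and 2817 CPM without cytokine, 817 and 818 after 100 pM mIL-21, 904 and 849 after 1 nM mIL-21, 914 and 837 after 100 pM 21h10 and 835 and 1001 after 1 nM 21h10. The cytokine libraries were close to each other and far below the controls, with log2 fold changes of -1.82, -1.72, -1.72 and -1.65. Ddx21, an RNA helicase of the nucleolus, was at 692 and 677 CPM without cytokine, 194 and 195 after 100 pM mIL-21, 197 and 177 after 1 nM mIL-21, 185 and 189.7 after 100 pM 21h10 and 199 and 218 after 1 nM 21h10. Lyar, a nucleolar zinc finger protein, was at 172 and 169.7 CPM without cytokine, 38.2 and 39.8 after 100 pM mIL-21, 42.2 and 40.9 after 1 nM mIL-21, 40.5 and 43.1 after 100 pM 21h10 and 51.6 and 51.5 after 1 nM 21h10. In Lyar the 2 libraries with 1 nM 21h10 were the highest of the 8 with cytokine. Npm1, the nucleolar chaperone nucleophosmin (chr11:33152498-33164142), fell least of the class. It was at 3385 and 3215 CPM without cytokine, 2176 and 2234 after 100 pM mIL-21, 2323 and 2109.6 after 1 nM mIL-21, 2384 and 2426 after 100 pM 21h10 and 2307 and 2669.6 after 1 nM 21h10. All 8 cytokine libraries lay below the controls, with log2 fold changes of -0.58, -0.57, -0.46 and -0.41. Of the longest GENCODE transcript of Npm1 53.8% matches transcripts of other genes at 97% identity or more, so some of its reads may belong to them.

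At the higher doses of experiment 2 the same class split. Npm1 was at 2435 and 2976 CPM without cytokine, 1480.5 and 1187 after 10 nM mIL-21, 1588 and 1440.5 after 100 nM mIL-21, 1569.9 and 1564 after 10 nM 21h10 and 1969 and 2009 after 100 nM 21h10. It fell in all 4 groups (log2 fold changes -1.02, -0.84, -0.79 and -0.44, here and below in the order 10 and 100 nM mIL-21, then 10 and 100 nM 21h10; edgeR adjusted p 1.41e-06 to 0.003). Ncl was at 1484 and 1793 CPM without cytokine, 1222 and 998 after 10 nM mIL-21, 1372 and 1204 after 100 nM mIL-21, 1309 and 1365 after 10 nM 21h10 and 1768 and 1630.2 after 100 nM 21h10. It fell in 3 groups, and after 100 nM 21h10 its level overlapped the controls (log2 fold change 0.05, SE 0.11, edgeR adjusted p = 0.71). Nolc1 was at 124 and 136.3 CPM without cytokine, 130.4 and 118 after 10 nM mIL-21, 134.2 and 133 after 100 nM mIL-21, 137.7 and 149.5 after 10 nM 21h10 and 166 and 176 after 100 nM 21h10. Its libraries with 100 nM 21h10 lay above the controls (log2 fold change 0.39, SE 0.08, edgeR adjusted p = 0.00137), a call that was lost when libraries were scaled by mapped reads (log2 fold change 0.09).

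Gnl3 was at 69.0 and 74.5 CPM without cytokine, 73.7 and 66.6 after 10 nM mIL-21, 88.4 and 74.4 after 100 nM mIL-21, 76.2 and 77.6 after 10 nM 21h10 and 80.0 and 82.1 after 100 nM 21h10, and Ddx21 was at 328 and 368 CPM without cytokine, 389 and 335 after 10 nM mIL-21, 406 and 368 after 100 nM mIL-21, 378 and 400.3 after 10 nM 21h10 and 404 and 381 after 100 nM 21h10. Neither passed the threshold in any of the 4 groups, with log2 fold changes of -0.03 to 0.18 and 0.06 to 0.17. Mybbp1a was at 246 and 233 CPM without cytokine, 184 and 184 after 10 nM mIL-21, 185 and 180.5 after 100 nM mIL-21, 197 and 206.3 after 10 nM 21h10 and 201.8 and 219 after 100 nM 21h10. All 8 of its cytokine libraries lay below the controls, and it passed the threshold in 3 groups, not after 100 nM 21h10 (log2 fold change -0.19, SE 0.08, edgeR adjusted p = 0.053). Lyar was at 57.5 and 69.3 CPM without cytokine, 53.1 and 40.2 after 10 nM mIL-21, 56.0 and 56.0 after 100 nM mIL-21, 57.3 and 67.0 after 10 nM 21h10 and 74.4 and 86.6 after 100 nM 21h10. It was lower after 10 nM mIL-21 (log2 fold change -0.44) and higher after 100 nM 21h10 (0.34), the latter not past the threshold with mapped-read scaling (0.04).

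The core of the box C/D particle had the lowest class medians in each comparison of experiment 1. Its 4 members (Fbl, Nop56, Nop58 and the U3 protein Rrp9) were all lower in all 4, with medians of -2.28 to -1.99. Nop56, a scaffold of the particle (chr2:130274367-130279313), was at 474 and 464 CPM without cytokine, 111 and 106 after 100 pM mIL-21, 80.9 and 83.8 after 1 nM mIL-21, 83.0 and 83.5 after 100 pM 21h10 and 89.7 and 90.6 after 1 nM 21h10. The fall after 1 nM mIL-21 was 5.69-fold (log2 fold change -2.51, SE 0.05, edgeR adjusted p = 1.35e-17). Nop58, its partner in the particle, was at 378 and 362 CPM without cytokine, 74.8 and 73.8 after 100 pM mIL-21, 72.6 and 63.4 after 1 nM mIL-21, 66.5 and 63.7 after 100 pM 21h10 and 84.1 and 89.5 after 1 nM 21h10. Fbl, fibrillarin, is the methyltransferase of the particle and was at 245 and 243 CPM without cytokine, 95.2 and 94.3 after 100 pM mIL-21, 78.5 and 86.6 after 1 nM mIL-21, 84.1 and 81.7 after 100 pM 21h10 and 84.4 and 77.7 after 1 nM 21h10. Its log2 fold changes of -1.37, -1.56, -1.56 and -1.59 were the smallest of the class. Rrp9 ranged from 15.6 to 20.6 CPM with cytokine against 70.3 to 75.5 without. Nop56 and Fbl also match transcripts of other genes, over 39% and 57.6% of their longest GENCODE transcripts.

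In experiment 2 Fbl alone of the class fell. It was at 136.9 and 123 CPM without cytokine, 73.4 and 70.1 after 10 nM mIL-21, 79.1 and 68.8 after 100 nM mIL-21, 74.1 and 78.2 after 10 nM 21h10 and 86.8 and 76.2 after 100 nM 21h10, with no overlap between cytokine and control libraries (log2 fold changes -0.86, -0.81, -0.77 and -0.67; edgeR adjusted p 2.53e-06 to 3.43e-05). Nop56 was at 199.5 and 213 CPM without cytokine, 194 and 176 after 10 nM mIL-21, 212 and 199 after 100 nM mIL-21, 196 and 206.1 after 10 nM 21h10 and 237 and 238 after 100 nM 21h10. Nop58 was at 177 and 215 CPM without cytokine, 209.9 and 161 after 10 nM mIL-21, 233 and 205.3 after 100 nM mIL-21, 212 and 229 after 10 nM 21h10 and 262 and 272 after 100 nM 21h10. Both passed the threshold only after 100 nM 21h10 of the 4 groups, upwards, at log2 fold changes of 0.20 and 0.45, and with mapped-read scaling neither call remained (Nop56 -0.10, a change of sign, and Nop58 0.15). Rrp9 did not pass in any group.

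The 4 proteins of the H/ACA particle were lower in all 4 comparisons of experiment 1 as well, with medians of -1.86 to -1.65. Dkc1, dyskerin, is the pseudouridine synthase. It was at 291 and 286 CPM without cytokine, 72.9 and 73.5 after 100 pM mIL-21, 57.6 and 53.2 after 1 nM mIL-21, 53.4 and 56.4 after 100 pM 21h10 and 53.4 and 57.6 after 1 nM 21h10. Its fall after 1 nM 21h10, 5.19-fold, was the largest of the class in that comparison (log2 fold change -2.38, SE 0.05, edgeR adjusted p = 8.96e-17). The other 3 are structural partners of dyskerin. Gar1 was at 69.5 and 64.1 CPM without cytokine, 21.7 and 20.9 after 100 pM mIL-21, 14.5 and 18.4 after 1 nM mIL-21, 15.9 and 16.9 after 100 pM 21h10 and 15.7 and 16.1 after 1 nM 21h10. Nhp2 was at 174 and 166 CPM without cytokine, 54.5 and 53.1 after 100 pM mIL-21, 51.0 and 56.0 after 1 nM mIL-21, 54.1 and 50.6 after 100 pM 21h10 and 61.1 and 57.9 after 1 nM 21h10. Nop10 was at 87.8 and 89.0 CPM without cytokine, 41.5 and 43.1 after 100 pM mIL-21, 35.3 and 37.3 after 1 nM mIL-21, 38.7 and 35.7 after 100 pM 21h10 and 38.4 and 36.5 after 1 nM 21h10. Nop10 fell least, with log2 fold changes of -1.06, -1.28, -1.25 and -1.24, and in all 4 proteins the groups with and without cytokine did not overlap. Every cytokine library also lay below both controls in 36.5% of all genes tested.

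At the doses of experiment 2 the particle's proteins no longer moved together. Nop10 was at 50.3 and 43.0 CPM without cytokine, 23.0 and 23.7 after 10 nM mIL-21, 25.7 and 20.6 after 100 nM mIL-21, 23.4 and 24.1 after 10 nM 21h10 and 24.7 and 25.7 after 100 nM 21h10, lower in every group without overlap (log2 fold changes -1.01 to -0.89; edgeR adjusted p 3.97e-06 to 1.59e-05). Gar1 was at 30.9 and 34.1 CPM without cytokine, 20.8 and 16.5 after 10 nM mIL-21, 22.6 and 19.4 after 100 nM mIL-21, 21.3 and 23.1 after 10 nM 21h10 and 27.4 and 27.7 after 100 nM 21h10. It passed the threshold in 3 groups and not after 100 nM 21h10 (log2 fold change -0.24, SE 0.12, edgeR adjusted p = 0.12). Dkc1 was at 143.4 and 151 CPM without cytokine, 149 and 130.1 after 10 nM mIL-21, 155 and 142.3 after 100 nM mIL-21, 149 and 157 after 10 nM 21h10 and 158 and 163 after 100 nM 21h10, and Nhp2 was at 61.5 and 58.5 CPM without cytokine, 64.2 and 48.7 after 10 nM mIL-21, 63.9 and 62.4 after 100 nM mIL-21, 62.8 and 58.6 after 10 nM 21h10 and 69.3 and 65.95 after 100 nM 21h10. No comparison of either gene with the controls passed, and cytokine libraries lay on both sides of the controls (log2 fold changes -0.08 to 0.13 and -0.09 to 0.17).

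All 5 members of the RNA polymerase I machinery fell in experiment 1, by unequal amounts. Polr1b, the second largest subunit of the enzyme (chr2:129100970-129128060), was at 108 and 107 CPM without cytokine, 27.4 and 27.7 after 100 pM mIL-21, 20.1 and 20.7 after 1 nM mIL-21, 16.0 and 18.1 after 100 pM 21h10 and 17.7 and 15.8 after 1 nM 21h10. Its fall reached 6.44-fold after 1 nM 21h10 (log2 fold change -2.69, SE 0.07, edgeR adjusted p = 3.12e-16). Polr1a, the largest subunit, was at 161 and 159.5 CPM without cytokine, 57.6 and 56.8 after 100 pM mIL-21, 48.6 and 46.3 after 1 nM mIL-21, 46.2 and 47.2 after 100 pM 21h10 and 49.5 and 49.5 after 1 nM 21h10, with log2 fold changes of -1.49, -1.76, -1.78 and -1.69. Ubtf, which opens ribosomal DNA for the polymerase, was at 336 and 324 CPM without cytokine, 110.2 and 113 after 100 pM mIL-21, 82.1 and 81.8 after 1 nM mIL-21, 84.9 and 83.7 after 100 pM 21h10 and 75.0 and 71.0 after 1 nM 21h10. It reached its lowest level after 1 nM 21h10 (log2 fold change -2.18). Rrn3, the initiation factor whose promoter is printed above, was at 122 and 121 CPM without cytokine, 58.1 and 57.1 after 100 pM mIL-21, 54.3 and 53.7 after 1 nM mIL-21, 51.8 and 55.3 after 100 pM 21h10 and 54.9 and 55.3 after 1 nM 21h10. Its log2 fold changes of -1.08, -1.17, -1.18 and -1.14 differed little between the 4 groups. Polr1c, a subunit that RNA polymerase III shares, was at 97.4 and 98.8 CPM without cytokine, 60.3 and 62.5 after 100 pM mIL-21, 66.4 and 73.9 after 1 nM mIL-21, 70.0 and 69.8 after 100 pM 21h10 and 78.3 and 75.1 after 1 nM 21h10. It fell least of the class, by 1.28-fold after 1 nM 21h10 and 1.60-fold after 100 pM mIL-21.

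In experiment 2 Polr1c had the largest fall of the class. It was at 68.5 and 50.4 CPM without cytokine, 32.6 and 33.3 after 10 nM mIL-21, 31.5 and 27.5 after 100 nM mIL-21, 29.6 and 26.4 after 10 nM 21h10 and 32.4 and 23.8 after 100 nM 21h10 (log2 fold changes -0.85, -1.01, -1.09 and -1.08; edgeR adjusted p 2.31e-05 to 0.000212). The 2 unstimulated libraries differed from each other by more CPM than the duplicates of any other group, and all 8 cytokine libraries lay below both. Polr1b was at 50.3 and 47.6 CPM without cytokine, 37.5 and 37.5 after 10 nM mIL-21, 35.8 and 35.7 after 100 nM mIL-21, 38.2 and 40.3 after 10 nM 21h10 and 39.7 and 47.7 after 100 nM 21h10, and passed in 3 groups, not after 100 nM 21h10 (log2 fold change -0.16, SE 0.10, edgeR adjusted p = 0.18). Polr1a was at 108 and 101 CPM without cytokine, 97.6 and 91.7 after 10 nM mIL-21, 99.9 and 94.9 after 100 nM mIL-21, 94.7 and 95.3 after 10 nM 21h10 and 84.5 and 84.5 after 100 nM 21h10. It passed after 100 nM 21h10 (log2 fold change -0.31), while Rrn3 at 62.8 to 73.5 CPM with cytokine and 67.1 to 72.0 without, and Ubtf at 172 to 199 with and 181 and 181 without, did not pass in any group.

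**Figure D2:**
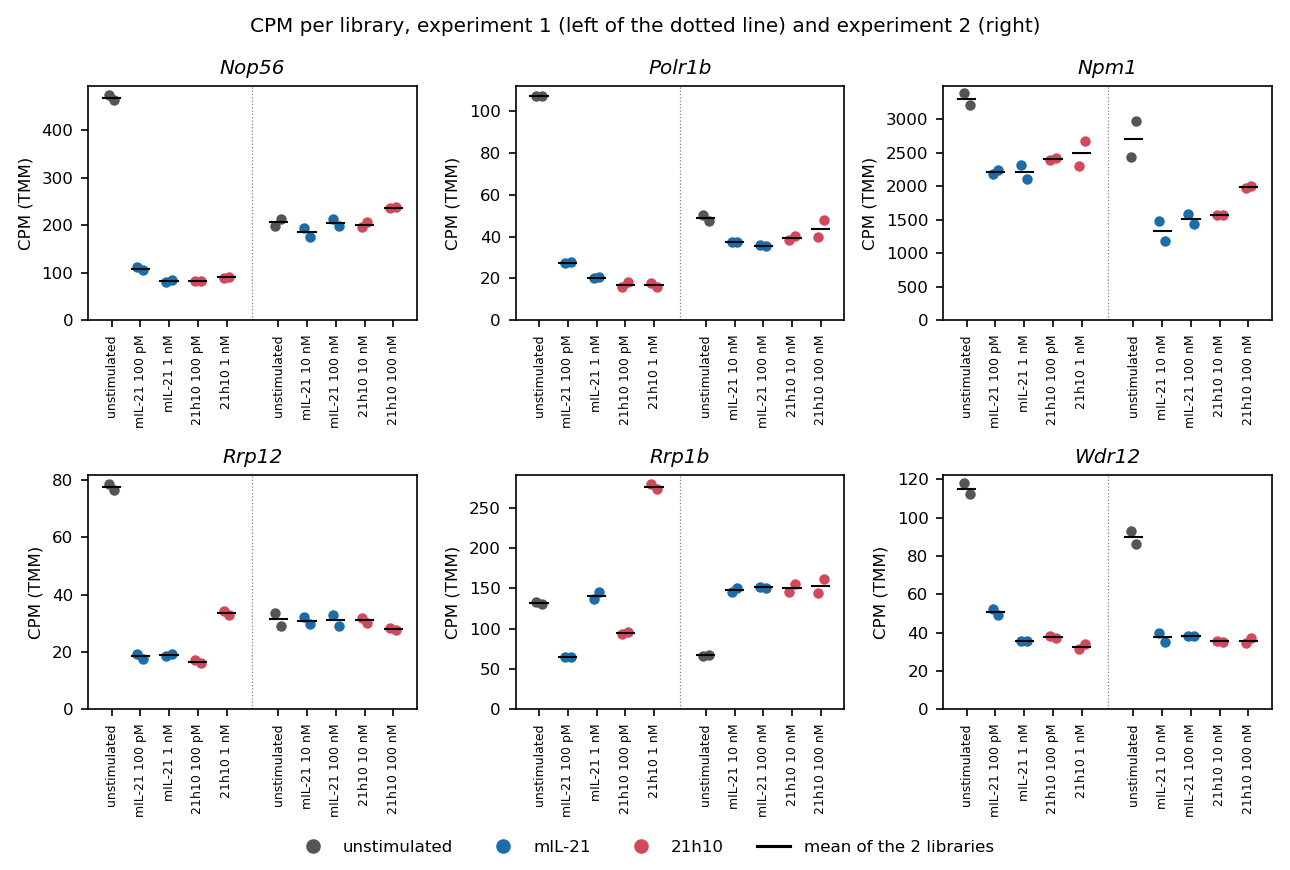
CPM of 6 members in every library (points) with the mean of the 2 libraries (line), unstimulated in grey, mIL-21 in blue and 21h10 in red; each axis starts at 0. Nop56, Polr1b and Rrp12 fall far below the unstimulated libraries in experiment 1 and stay much closer to them in experiment 2, Npm1 and Wdr12 fall in both, and Rrp1b rises in all groups of experiment 2 and in experiment 1 lies below the controls at 100 pM of either cytokine and above them after 1 nM 21h10.

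Small subunit factors numbered 15, and all 15 were lower in each comparison of experiment 1, with medians of -1.69 to -1.40. Utp20, a large scaffold protein of the small subunit precursor (chr10:88746607-88826814), had the lowest log2 fold change of all 50 members in each of the 4. It was at 181 and 187 CPM without cytokine, 28.2 and 27.1 after 100 pM mIL-21, 21.1 and 17.6 after 1 nM mIL-21, 18.6 and 18.8 after 100 pM 21h10 and 18.8 and 21.3 after 1 nM 21h10, and its fall after 100 pM 21h10 was 9.83-fold (log2 fold change -3.30, SE 0.07, edgeR adjusted p = 6.65e-17). Heatr1, of the early complex that joins transcription and processing, was at 257 and 254 CPM without cytokine, 70.2 and 71.9 after 100 pM mIL-21, 61.4 and 59.1 after 1 nM mIL-21, 57.9 and 58.9 after 100 pM 21h10 and 78.5 and 80.7 after 1 nM 21h10. Both libraries with 1 nM 21h10 lay above the other 6 with cytokine. Pno1, an export factor of the particle, ranged from 20.7 to 29.7 CPM with cytokine against 123 to 128 without. The smallest falls were in Utp14a (log2 fold changes -0.62 to -0.51), in Ddx10, a helicase (-0.87 to -0.55), and in Nob1, the endonuclease of the last cut (-0.84 to -0.68). Nop14, Wdr43, Wdr75, Utp18, Bms1, Tsr1, Noc4l and Rcl1 had log2 fold changes of -2.17 to -1.07.

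Rrp12, another export factor (chr19:41859483-41896153), differed between the doses of 21h10. It was at 78.5 and 76.4 CPM without cytokine, 19.4 and 17.5 after 100 pM mIL-21, 18.7 and 19.3 after 1 nM mIL-21, 17.1 and 16.0 after 100 pM 21h10 and 34.3 and 33.0 after 1 nM 21h10. The 2 libraries with 1 nM 21h10 lay well above the other 6 with cytokine, which were close together, and still below the controls (log2 fold change -1.20, SE 0.06, edgeR adjusted p = 4.12e-12). In experiment 2 it was at 33.5 and 29.2 CPM without cytokine, 32.0 and 29.7 after 10 nM mIL-21, 33.0 and 28.9 after 100 nM mIL-21, 31.8 and 30.1 after 10 nM 21h10 and 28.5 and 27.8 after 100 nM 21h10, and no group passed (log2 fold changes -0.02, -0.02, -0.02 and -0.16).

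In experiment 2 6, 4, 6 and 6 of the 15 were lower and 1, 1, 3 and 5 higher, beside 23.7%, 23.7%, 24.9% and 25.8% of all genes lower and 22.5%, 22.5%, 25.2% and 25.0% higher, and several of these counts lie near those shares. Rcl1, which acts in an early cut of the precursor, had the lowest log2 fold change of the class after 100 nM 21h10. It was at 33.5 and 30.9 CPM without cytokine, 21.00 and 19.4 after 10 nM mIL-21, 22.5 and 20.4 after 100 nM mIL-21, 21.02 and 19.2 after 10 nM 21h10 and 20.7 and 19.4 after 100 nM 21h10 (log2 fold change -0.68, SE 0.11, edgeR adjusted p = 0.000109). Utp20 was at 81.1 and 83.9 CPM without cytokine, 62.0 and 56.4 after 10 nM mIL-21, 63.5 and 57.6 after 100 nM mIL-21, 52.9 and 59.1 after 10 nM 21h10 and 51.1 and 56.9 after 100 nM 21h10, lower in all 4 groups by log2 fold changes of -0.61 to -0.45. Noc4l and Nob1 were lower in all 4 as well, at -0.67 to -0.47 and -0.42 to -0.33. Utp14a passed in 3 groups, not after 100 nM mIL-21, at -0.34 to -0.18, and Pno1 in the same 3, at -0.28 to -0.13. Heatr1 was at 142.2 and 139.4 CPM without cytokine, 159 and 155 after 10 nM mIL-21, 161 and 151 after 100 nM mIL-21, 151 and 151 after 10 nM 21h10 and 138.8 and 136.6 after 100 nM 21h10, with no group past the threshold. Wdr75 and Utp18 did not pass either, at -0.06 to 0.10.

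The members of the class that rose were Tsr1, Wdr43, Bms1, Nop14 and Ddx10. Tsr1, a GTPase-like factor, was at 71.8 and 70.6 CPM without cytokine, 91.5 and 82.0 after 10 nM mIL-21, 98.9 and 83.0 after 100 nM mIL-21, 90.2 and 90.6 after 10 nM 21h10 and 87.1 and 92.0 after 100 nM 21h10, above the controls in all 8 libraries. Its log2 fold changes were 0.28, 0.35, 0.34 and 0.33 (edgeR adjusted p 0.00602 to 0.021), with 32.3% of its exonic bases shared with Srr on the other strand, and no call was left with mapped-read scaling (log2 fold changes 0.10, 0.13, 0.07 and 0.03). Wdr43, an early scaffold, was at 140.2 and 167 CPM without cytokine, 181 and 149 after 10 nM mIL-21, 191 and 173 after 100 nM mIL-21, 187 and 196 after 10 nM 21h10 and 214 and 212 after 100 nM 21h10, and passed after 10 and 100 nM 21h10 (0.32 and 0.48; with mapped reads 0.05 and 0.18, neither past the threshold). Bms1, a GTPase, was at 119.6 and 134.1 CPM without cytokine, 143.3 and 130.5 after 10 nM mIL-21, 151 and 141.5 after 100 nM mIL-21, 149 and 167 after 10 nM 21h10 and 158 and 159.8 after 100 nM 21h10 and passed in the same 2 groups (0.32 and 0.33; with mapped reads 0.05 and 0.03, neither past it). Nop14 was at 77.3 and 89.0 CPM without cytokine, 78.2 and 60.4 after 10 nM mIL-21, 82.1 and 76.8 after 100 nM mIL-21, 82.5 and 93.1 after 10 nM 21h10 and 101 and 108 after 100 nM 21h10, and passed after 100 nM 21h10 (0.33; with mapped reads 0.03, not past it). Ddx10 passed in that group too, at 0.29, and with mapped reads its sign turned (-0.01). Nop2, the large subunit methyltransferase whose promoter is printed above, was at 75.1 and 71.0 CPM without cytokine, 73.9 and 76.2 after 10 nM mIL-21, 83.4 and 83.0 after 100 nM mIL-21, 85.4 and 85.4 after 10 nM 21h10 and 90.9 and 90.4 after 100 nM 21h10. It passed after 10 and 100 nM 21h10 (0.23 and 0.31; with mapped reads -0.05, a turned sign, and 0.01).

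Large subunit factors also numbered 15. In experiment 1 15, 14, 15 and 14 of them were lower, with medians of -1.74 to -1.49. Ftsj3, a methyltransferase of the large subunit precursor, fell most. It was at 235 and 226 CPM without cytokine, 46.0 and 46.7 after 100 pM mIL-21, 34.2 and 30.8 after 1 nM mIL-21, 32.8 and 32.4 after 100 pM 21h10 and 33.1 and 32.8 after 1 nM 21h10. The fall after 1 nM 21h10 was 6.998-fold (log2 fold change -2.81, SE 0.06, edgeR adjusted p = 1.19e-17). The complex of Pes1, Bop1 and Wdr12 is needed to process large subunit RNA, and its 3 subunits fell by different amounts. Bop1 was at 131 and 131 CPM without cytokine, 35.9 and 35.7 after 100 pM mIL-21, 28.4 and 29.6 after 1 nM mIL-21, 25.0 and 28.3 after 100 pM 21h10 and 32.5 and 25.8 after 1 nM 21h10. Pes1 was at 171 and 167 CPM without cytokine, 87.5 and 88.8 after 100 pM mIL-21, 81.1 and 85.0 after 1 nM mIL-21, 87.6 and 83.1 after 100 pM 21h10 and 80.4 and 82.1 after 1 nM 21h10. Wdr12 was at 118 and 112 CPM without cytokine, 52.1 and 49.2 after 100 pM mIL-21, 35.8 and 35.7 after 1 nM mIL-21, 38.1 and 37.1 after 100 pM 21h10 and 31.4 and 33.9 after 1 nM 21h10. After 1 nM 21h10 the log2 fold changes were -2.18 for Bop1, -1.06 for Pes1 and -1.82 for Wdr12. A stretch of 1377 bases of the longest GENCODE transcript of Wdr12 matches a transcript annotated to Vmn1r88 at 97.2% identity, and another transcript of Wdr12 held more reads than the longest one used here. Nop2, Nop16, Wdr74, Ddx18, Nle1, Noc2l, Noc3l, Gtpbp4, Nip7 and Ebna1bp2 had log2 fold changes of -2.29 to -0.80.

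In experiment 2 Wdr12 (chr1:60071361-60098500) had the lowest log2 fold change of all 50 members in each of the 4 comparisons. It was at 92.9 and 86.4 CPM without cytokine, 39.7 and 35.1 after 10 nM mIL-21, 38.2 and 38.4 after 100 nM mIL-21, 35.6 and 35.1 after 10 nM 21h10 and 34.6 and 36.9 after 100 nM 21h10, with log2 fold changes of -1.26, -1.23, -1.34 and -1.33 (edgeR adjusted p 9.51e-09 to 2.62e-08). Pes1 was at 106 and 96.9 CPM without cytokine, 87.2 and 80.5 after 10 nM mIL-21, 86.8 and 81.7 after 100 nM mIL-21, 88.4 and 87.1 after 10 nM 21h10 and 85.5 and 85.8 after 100 nM 21h10, lower in all 4 groups by log2 fold changes of -0.27 to -0.21. Bop1 was at 55.7 and 44.5 CPM without cytokine, 49.3 and 49.4 after 10 nM mIL-21, 50.6 and 44.4 after 100 nM mIL-21, 41.2 and 41.3 after 10 nM 21h10 and 40.8 and 39.97 after 100 nM 21h10, and passed after the 2 doses of 21h10 only of the 4 groups (-0.28 and -0.31). Its controls differed from each other, and 1 of them lay within the range of the mIL-21 libraries. Ftsj3 was at 97.8 and 106 CPM without cytokine, 110.4 and 93.7 after 10 nM mIL-21, 114 and 106 after 100 nM mIL-21, 114 and 115 after 10 nM 21h10 and 116 and 119 after 100 nM 21h10, with no call (log2 fold changes 0.00 to 0.21). Ddx18, a helicase of which 87.8% matches another gene's transcript, was lower in all 4 groups (-0.41 to -0.32), Nle1 after both doses of 21h10 (-0.60 and -0.76), and Nop16 and Noc2l after 10 nM mIL-21 (-0.30 and -0.23). Wdr74, Noc3l, Gtpbp4, Nip7 and Ebna1bp2 did not pass in any group, at -0.30 to 0.17.

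Rrp1b, a nucleolar protein that also binds chromatin (chr17:32036162-32062865), was the member that did not follow the set. In experiment 1 it was at 133.6 and 131 CPM without cytokine, 65.2 and 65.1 after 100 pM mIL-21, 136.7 and 145 after 1 nM mIL-21, 94.0 and 96.3 after 100 pM 21h10 and 279.9 and 273 after 1 nM 21h10. It was 2.03-fold lower than in the controls after 100 pM mIL-21 (log2 fold change -1.02, SE 0.05, edgeR adjusted p = 1.78e-12), without a call after 1 nM mIL-21 (log2 fold change 0.09, SE 0.05, edgeR adjusted p = 0.07), lower after 100 pM 21h10 (-0.47) and 2.09-fold higher after 1 nM 21h10 (log2 fold change 1.06, SE 0.05, edgeR adjusted p = 3.82e-13). In experiment 2 it was at 66.3 and 67.2 CPM without cytokine, 145 and 151 after 10 nM mIL-21, 152 and 151 after 100 nM mIL-21, 145 and 155 after 10 nM 21h10 and 144 and 162 after 100 nM 21h10. It was 2.22-fold to 2.30-fold higher than in the controls in all 4 groups (edgeR adjusted p 9.4e-09 to 1.33e-08), and these rises, alone among the members' rises, held with mapped-read scaling, at log2 fold changes of 0.90 to 0.97.

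Over all 50 members, calls in experiment 2 went both ways. After 10 nM mIL-21 20 members were lower and 2 higher (23.7% and 22.5% of all genes), with a median log2 fold change of -0.23. After 100 nM mIL-21 15 were lower and 2 higher (23.7% and 22.5% of all genes; median -0.10). After 10 nM 21h10 19 were lower and 5 higher (24.9% and 25.2%; median -0.07). After 100 nM 21h10 16 were lower and 11 higher (25.8% and 25.0%; median -0.04). The calls of lower members thus stood somewhat above the share of all genes in each group, and those of higher members below it. The 8 cytokine libraries all lay below the controls in 16 members and above them in 2, Rrp1b and Tsr1, against 26.4% and 23.2% of all genes.

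Scaling bears on this comparison. When libraries were scaled by their mapped reads in place of TMM, the median of all genes in experiment 2 moved to -0.19, -0.23, -0.27 and -0.32 against the controls. The members' calls were then 32, 28, 33 and 30 lower and 1 higher in each group, Rrp1b. Calls of lower genes rose in all genes too, to 4728, 5198, 5785 and 6245 of the 13772 tested, with 2004, 1821, 1969 and 1895 higher. The members' medians, -0.41, -0.32, -0.34 and -0.34, were lower by about as much as that shift. In experiment 1 the same scaling moved the median of all genes to -0.12 after 1 nM 21h10 and by less in the other 3 comparisons, and changed no member's call against the controls.

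The difference between the experiments was tested in 1 fit of all 20 libraries, a comparison added after the data had been seen. The mean log2 fold change over the 4 cytokine groups was lower in experiment 1 for 47 of 50 members and higher for 2, Npm1 and Polr1c (edgeR adjusted p under 0.05; 31.2% and 33.5% of all 14530 genes). The members' median difference was -1.504 on the log2 scale, against 0.02 for all genes. It was widest for Nolc1 (-2.83, SE 0.08), Ftsj3 (-2.76, SE 0.08), Gnl3 (-2.65, SE 0.10) and Utp20 (-2.53, SE 0.10), which fell deeply in experiment 1 and hardly or less in experiment 2. For Polr1c (0.57, SE 0.13) and Npm1 (0.33, SE 0.11) the fall was larger in experiment 2. Nop10 did not pass (log2 fold change -0.18, SE 0.10, edgeR adjusted p = 0.12). With mapped-read scaling 44 members were lower and 2 higher, the calls of Utp14a, Nob1 and Wdr12 being lost, against a median of all genes of 0.19. Of the 14530 genes, 3574 were then lower and 5717 higher. Dose range, unstimulated cells and experiment changed together, and their parts in this difference cannot be told apart.

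**Figure D3:**
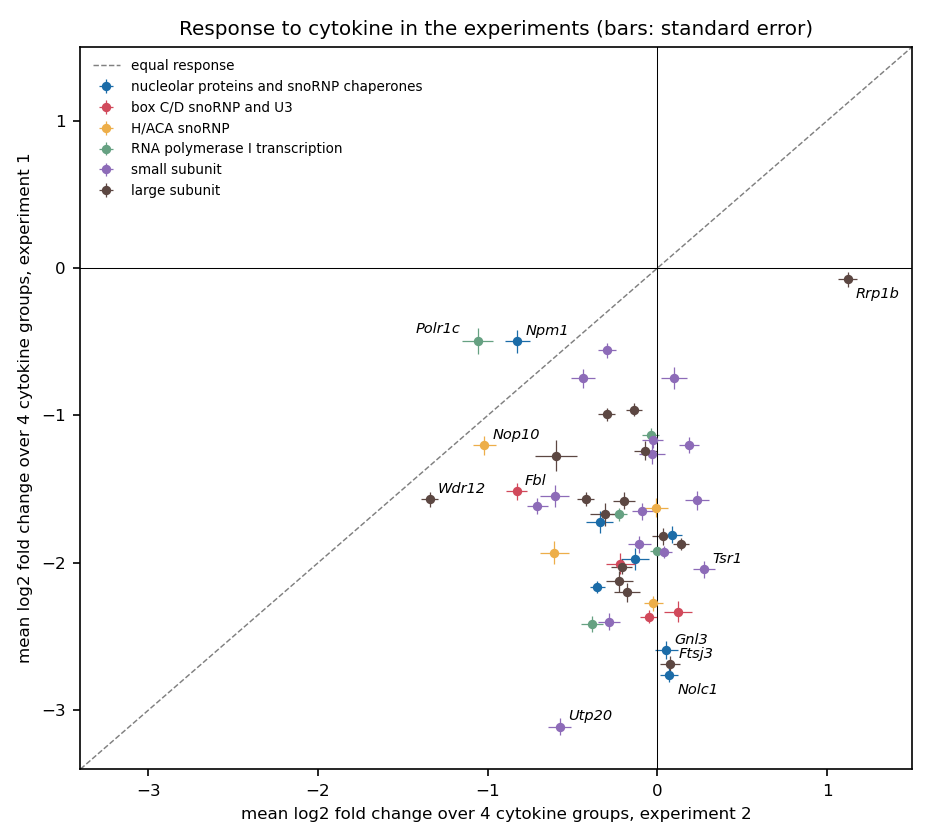
Mean log2 fold change over the 4 cytokine groups in experiment 2 (horizontal) and experiment 1 (vertical) for each of the 50 members, coloured by class, with standard errors; the dashed line marks equal responses. Most members lie below -1 in experiment 1 and near 0 in experiment 2, while Polr1c and Npm1 lie above the line and Nop10 close to it.

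Which cytokine lowered these genes more depended on the dose in experiment 1. At 100 pM, 28 of 50 members were lower with 21h10 than with mIL-21 and 2 were higher (19.0% and 19.6% of all genes), with a median log2 difference of -0.19. At 1 nM the balance was the other way, with 17 members higher with 21h10 and 2 lower (19.6% and 18.1%; median 0.07). With mapped-read scaling the calls were 36 lower and 1 higher at 100 pM, where the median of all genes shifted to -0.11, and 8 higher and 2 lower at 1 nM. Of the 13974 genes tested, 4072 were then lower and 1616 higher at 100 pM, and 2038 higher and 2918 lower at 1 nM. The 8 members higher at 1 nM lay near the share of all genes under that scaling.

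At 100 pM the largest falls with 21h10 were in Polr1b (log2 fold change -0.68, SE 0.07, edgeR adjusted p = 6.05e-07), Utp20 (log2 fold change -0.56, SE 0.07, edgeR adjusted p = 1.42e-05) and Ftsj3 (log2 fold change -0.51, SE 0.05, edgeR adjusted p = 1.43e-06). Utp20 was at 18.6 and 18.8 CPM after 21h10 and 28.2 and 27.1 after mIL-21, without overlap, as were the libraries of Polr1b and Ftsj3 given above. Of the 13974 genes tested, 5080 lay apart downwards and 5045 upwards. The 2 members that were higher were Rrp1b (log2 fold change 0.55, SE 0.05, edgeR adjusted p = 1.08e-07) and Polr1c (log2 fold change 0.19, SE 0.05); the call of Polr1c was lost with mapped-read scaling. By class, 10 of 15 large subunit factors, 6 of 15 small subunit factors, 3 of 4 H/ACA proteins, 3 of 4 box C/D proteins, 3 of 5 RNA polymerase I genes and 3 of 7 nucleolar proteins were lower.

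At 1 nM the largest rises with 21h10 were in Rrp1b (log2 fold change 0.97, SE 0.05, edgeR adjusted p = 4.44e-11), Rrp12 (log2 fold change 0.82, SE 0.07, edgeR adjusted p = 3.65e-08) and Pno1 (log2 fold change 0.43, SE 0.06, edgeR adjusted p = 4.58e-05). Pno1 was at 29.4 and 29.7 CPM after 21h10 and 23.4 and 20.7 after mIL-21. Those that were lower were Polr1b (log2 fold change -0.29, SE 0.07, edgeR adjusted p = 0.00505) and Ubtf (log2 fold change -0.17, SE 0.05, edgeR adjusted p = 0.011). The libraries did not overlap in any of these 5 genes, which the threshold had already picked. Of the 13974 genes tested, 4239 lay apart upwards and 4423 downwards. Small subunit factors gave 8 of the 17 rises, nucleolar proteins 4, large subunit factors 3 and box C/D proteins 2, and no H/ACA protein or RNA polymerase I gene was higher.

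**Figure D4:**
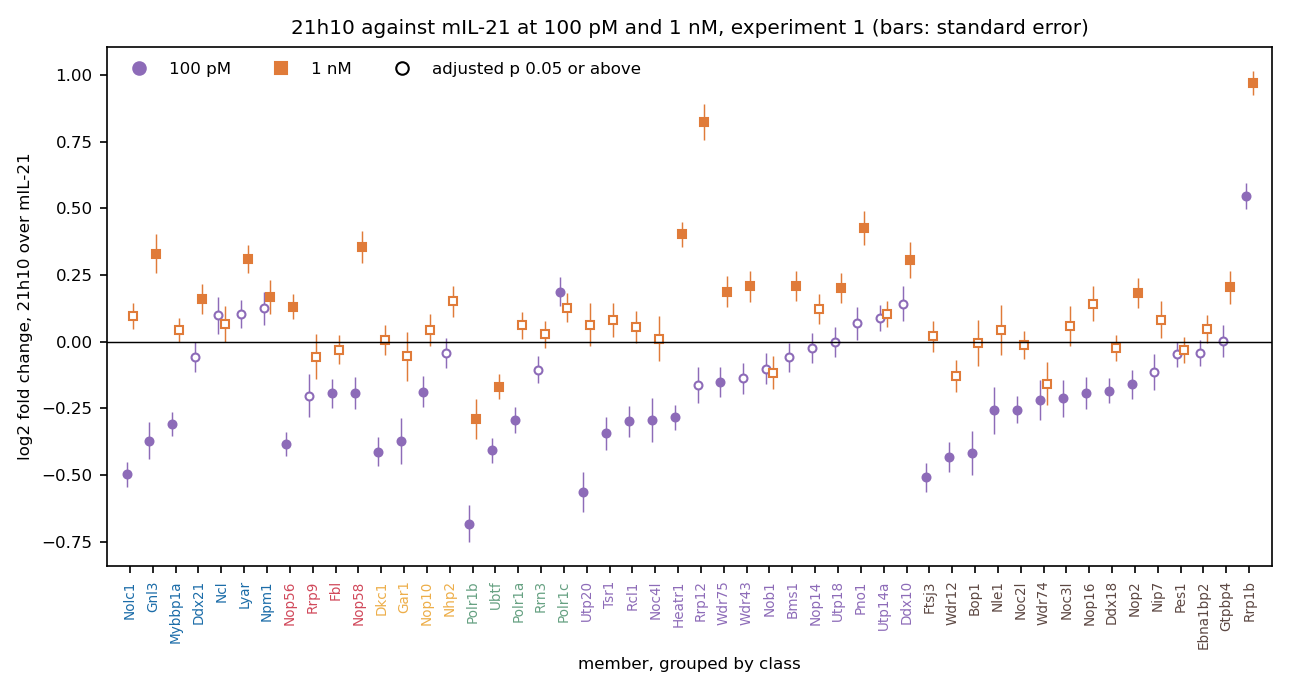
Log2 fold change of 21h10 over mIL-21 for each of the 50 members at 100 pM (purple circles) and 1 nM (orange squares) in experiment 1, with standard errors; open symbols did not pass an adjusted p of 0.05. Most circles lie below 0 and most squares at or above it, and Rrp12 and Rrp1b stand out at 1 nM.

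The dose steps themselves ran in opposite directions. From 100 pM to 1 nM mIL-21, 24 members were lower and 2 higher (16.6% and 17.9% of all genes; median -0.17). From 100 pM to 1 nM 21h10, 14 were higher and 2 lower (20.1% and 19.1%; median 0.11). With mapped-read scaling the steps gave 38 lower and 1 higher for mIL-21, where the median of all genes shifted to -0.12, and 8 higher and 2 lower for 21h10. Of the 13974 genes tested, 4132 were then lower and 1459 higher for mIL-21, and 2030 higher and 3308 lower for 21h10. The 8 members higher with 21h10 lay near the share of all genes under that scaling. Rrp1b rose in both steps, by 1.11 with mIL-21 and 1.54 with 21h10 on the log2 scale.

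A test of the dose difference itself, the effect of 21h10 against mIL-21 at 1 nM minus that at 100 pM, passed in 25 of 50 members. All 25 were positive, while 8.34% of all genes were called positive and 10.0% negative. The members' median was 0.29 and that of all genes -0.01. It was widest in Rrp12 (0.99, SE 0.10), Gnl3 (0.70, SE 0.10), Heatr1 (0.69, SE 0.07), Utp20 (0.63, SE 0.11), Nolc1 (0.59, SE 0.07) and Nop58 (0.55, SE 0.08). Gnl3, for example, was lower with 21h10 than with mIL-21 at 100 pM (25.3 and 27.8 against 34.5 and 34.3 CPM) and higher at 1 nM (35.6 and 34.9 against 30.7 and 25.6 CPM).

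Few differences were called between the low dose of 21h10 and the high dose of mIL-21. Between 100 pM 21h10 and 1 nM mIL-21, 1 of 50 members passed the threshold, and 0.737% of all genes did. That member was Rrp1b, at 94.0 and 96.3 CPM with 21h10 and 136.7 and 145 with mIL-21 (log2 fold change -0.57, SE 0.05, edgeR adjusted p = 4.12e-06). At an unadjusted p under 0.05, 3 members were lower and 0 higher, beside 826 and 575 of the 13974 genes tested. The 3 lay near the share of all genes. The estimates over the 50 members ran from -0.57 to 0.13 with a median of -0.01. The 95% intervals were -0.08 to 0.11 for Nop56, -0.13 to 0.11 for Dkc1 and -0.14 to 0.06 for Heatr1, narrow beside their fall from unstimulated cells.

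In experiment 2 the cytokines differed in few members. At 10 nM no member passed with edgeR, DESeq2 or limma, and 0.00726% of all genes did with edgeR. At an unadjusted p under 0.05, 10 members were higher with 21h10 and 1 lower, beside 695 and 513 of the 13772 genes tested. Lyar had the largest estimate, 0.42 with a 95% interval of 0.14 to 0.69, and that of Ncl was 0.04 to 0.50. At 100 nM 5 members were higher with 21h10 and none lower (4.01% and 4.52% of all genes). At an unadjusted p under 0.05, 12 were higher and 3 lower, beside 1583 and 1652 of the 13772 genes tested. DESeq2 called 7 members higher and 0 lower (688 and 740 of 12704 genes), and limma called none (252 and 568 of 10813). The 5 were Lyar (log2 fold change 0.52, SE 0.13, edgeR adjusted p = 0.02), Ncl (log2 fold change 0.40, SE 0.11, edgeR adjusted p = 0.033), Nop14 (log2 fold change 0.39, SE 0.11, edgeR adjusted p = 0.043), Npm1 (log2 fold change 0.39, SE 0.11, edgeR adjusted p = 0.034) and Nolc1 (log2 fold change 0.36, SE 0.09, edgeR adjusted p = 0.016). In each of the 5, which the threshold had already picked, both libraries with 21h10 lay above both with mIL-21. Of the 13772 genes tested, 3774 were apart in that direction and 4134 in the other. None of these calls remained when either mIL-21 library at 100 nM or the second 21h10 library at 100 nM was left out, 1 remained (Lyar) without the first 21h10 library at 100 nM, and 2 remained (Lyar and Nolc1) without either 21h10 library at 10 nM or with mapped-read scaling.

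The steps from 10 to 100 nM gave no call in the set. For mIL-21, 0% of all genes passed, and DESeq2 and limma called no member. At an unadjusted p under 0.05, 1 member was higher and 0 lower, beside 151 and 210 of the 13772 genes tested. For 21h10, 5.33% of all genes passed with edgeR. At an unadjusted p under 0.05, 8 members were higher and 0 lower, beside 1172 and 1463 of the 13772 genes tested. DESeq2 called 3 members higher (384 of 12437 genes) and limma none (129 of 10813 higher). The dose difference between the cytokines in experiment 2 passed in 0.922% of all genes and in no member, with none called by DESeq2 or limma. No member reached an unadjusted p under 0.05 in either direction, beside 497 higher and 599 lower of the 13772 genes tested. Estimates over the members ran from -0.25 to 0.22.

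Other genes of the pathway, taken from lists put together with earlier results of these data known, were also mostly lower in experiment 1, where 39.4% to 42.1% of all genes were lower. Of 32 other small subunit factors 31, 31, 31 and 30 were lower against unstimulated cells, with medians of -1.32 to -1.21. Of 38 other large subunit factors 35, 34, 34 and 35 were lower, with medians of -1.26 to -1.14. After 1 nM 21h10 the largest falls were in Wdr46 (-2.72) and Rrp15 (-2.85), and the largest rises in Tsr3 (0.39) and Gltscr2, now Nop53 (1.13). Proteins of RNase MRP and RNase P, enzymes that cut precursor RNAs, were lower in 10 of 11 in each comparison, Rpp25 most (-2.98 after 1 nM 21h10), with Rpp21 higher (0.53). Those of the RNA exosome, which trims RNA ends, were lower in 12, 11, 11 and 11 of 13, from Dis3 at -2.09 to Exosc8 at 0.55 after 1 nM 21h10.

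The remaining polymerase genes moved less. Other RNA polymerase I genes were lower in 7, 8, 8 and 8 of 11 and higher in 2, 2, 3 and 3, with Polr1e falling most after 1 nM 21h10 (-1.75) and Taf1b rising most (0.27). RNA polymerase III subunits were lower in 9, 7, 7 and 7 of 11, and Polr3gl was at 0.41 after 1 nM 21h10. The snoRNA host genes, noncoding genes whose introns carry snoRNAs, did not stand clear of all genes, of which 39.4% to 42.1% were lower and 38.3% to 40.2% higher: of the 10 tested 6, 4, 5 and 5 were lower and 3, 5, 5 and 5 higher, from Snhg9 at -1.91 to Snhg6 at 1.24 after 1 nM 21h10. The medians were -0.70 to -0.34 for the RNA polymerase I list, -0.50 to -0.33 for RNA polymerase III and -0.30 to 0.05 for the host genes.

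In experiment 2, where 23.7% to 25.8% of all genes were lower and 22.5% to 25.2% higher, most lists gave calls both ways. Other large subunit factors were lower in 6, 5, 6 and 7 and higher in 5, 7, 14 and 17 of 38, and other small subunit factors lower in 6, 7, 7 and 8 and higher in 4, 6, 9 and 9 of 32. Mdn1, a giant ATPase of large subunit assembly, fell most of its list after 100 nM 21h10 (-1.005) and Nol10 rose most of the small subunit list (1.02). The snoRNA host genes were lower in 8, 7, 7 and 4 and higher in 0, 0, 0 and 1 of the 9 tested, and RNase MRP and RNase P proteins were lower in 6, 6, 5 and 6 and higher in none of 11. The counts of exosome genes lay at or below the shares of all genes in each group and those of other RNA polymerase I genes near them. Exosome genes were lower in 3, 2, 2 and 2 and higher in 0, 2, 1 and 1 of 13, and other RNA polymerase I genes lower in 3, 2, 2 and 3 and higher in 2, 3, 2 and 3 of 11. RNA polymerase III subunits were lower in 1, 2, 1 and 1 and higher in 3, 4, 4 and 4 of 11.

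**Figure D5:**
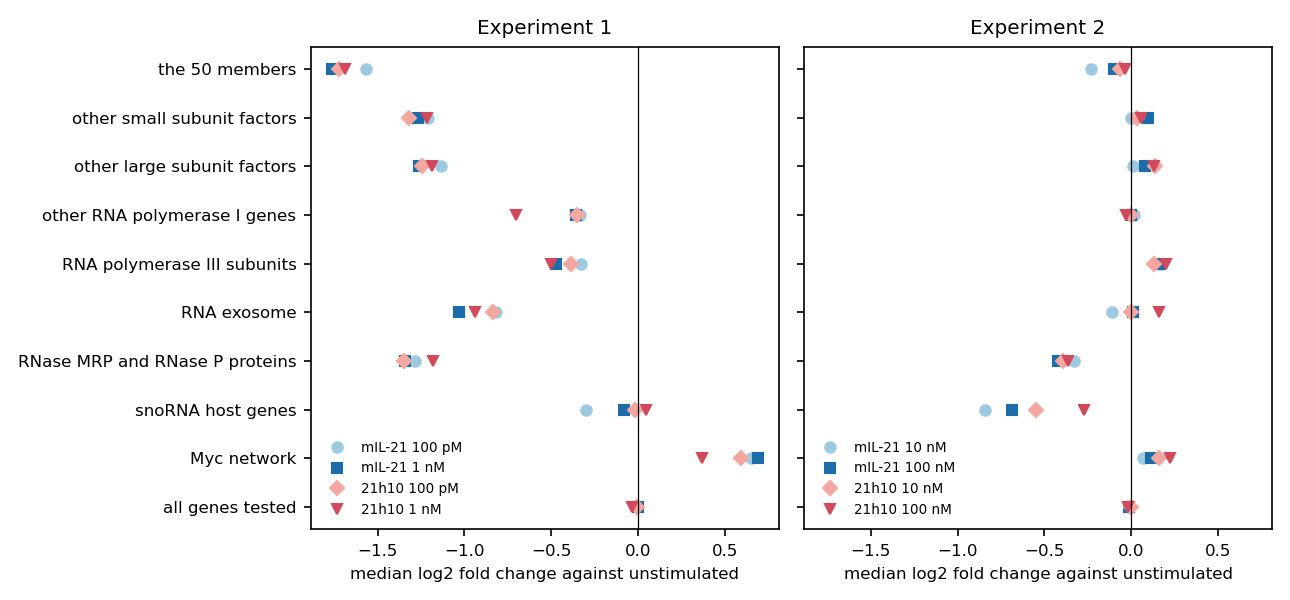
Median log2 fold change against the unstimulated cells of the same experiment for the 50 members, 8 other lists and all genes tested, with 1 symbol per cytokine and dose. In experiment 1 the members and the other assembly factors lie below -1 while all genes lie near 0, and in experiment 2 most lists lie within 0.5 of 0.

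Myc fell in experiment 1 by less than the members' median. It was at 308 and 312 CPM without cytokine, 265 and 267 after 100 pM mIL-21, 200.1 and 208.4 after 1 nM mIL-21, 185 and 188 after 100 pM 21h10 and 248 and 231 after 1 nM 21h10, with log2 fold changes of -0.22, -0.60, -0.73 and -0.37 (edgeR adjusted p 9.92e-11 to 0.000311). It was lower with 21h10 than with mIL-21 at 100 pM (log2 fold change -0.51, SE 0.05, edgeR adjusted p = 2.05e-07) and higher at 1 nM (log2 fold change 0.23, SE 0.05, edgeR adjusted p = 0.000912). In experiment 2 it was at 231 and 235 CPM without cytokine, 183 and 212 after 10 nM mIL-21, 190.1 and 220.3 after 100 nM mIL-21, 214 and 219 after 10 nM 21h10 and 244 and 247 after 100 nM 21h10, past the threshold after 10 nM mIL-21 of the 4 groups (log2 fold change -0.24, SE 0.09, edgeR adjusted p = 0.039). Mxd1, a dimerisation partner of Max that is known to oppose Myc at the E-box, rose most of the 10 genes of the Myc network in all groups but 100 pM mIL-21, where it was Mxd4, another such partner. Mxd1 went from 14.3 and 13.1 CPM to 56.2 and 52.8 after 100 pM mIL-21, 140.2 and 153 after 1 nM mIL-21, 107 and 104 after 100 pM 21h10 and 252 and 242 after 1 nM 21h10, and in experiment 2 from 32.0 and 31.6 to 229 and 235, 199.7 and 215, 228 and 221 and 207.9 and 185 CPM. Its log2 fold changes of 1.99 to 4.16 and 2.63 to 2.87 were past the threshold in all 8 groups, without overlap between cytokine and control libraries. Mxd4 was at 5.83 and 7.09 CPM in the controls of experiment 1 and 34.0 and 29.4, 15.8 and 19.7, 21.7 and 19.9 and 8.75 and 8.30 with cytokine, above the controls (log2 fold changes 0.42 to 2.32). In experiment 2 it was at 31.5 and 24.2 CPM in the controls and 5.69 and 5.93, 4.69 and 4.68, 5.88 and 5.12 and 6.89 and 4.09 with cytokine, below them (log2 fold changes -2.57 to -2.26; edgeR adjusted p 1.98e-12 to 0.00531 in experiment 1 and 4.56e-08 to 1.46e-07 in experiment 2). Of the 10 genes of the network 6, 7, 6 and 6 were higher and 3, 3, 3 and 3 lower in experiment 1 (38.3% to 40.2% and 39.4% to 42.1% of all genes), and 4, 4, 4 and 4 higher and 4, 2, 2 and 3 lower in experiment 2 (22.5% to 25.2% and 23.7% to 25.8%). The part of Myc or Mxd1 in the members' levels was not tested.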

How the data were processed

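Poly(A)-selected RNA libraries (KAPA mRNA HyperPrep) were sequenced on an Illumina NovaSeq, and each deposited table lists 31682 RefSeq transcripts with a read count and an RPKM value. Per the labels and the study's methods, the authors mapped reads to mm10 (GRCm38) and counted whole reads on exons, with Bowtie2 2.2.6, TopHat2 2.0.11, SAMtools 0.1.8, bedtools 2.25.0 and edgeR named in the submitters' processing notes. The deposited RPKM is the authors' scaling of those counts to transcript length and mapped reads. The strand used in counting and the handling of reads with several matches are not given in the sources used here. The libraries that the labels name WT were read as mIL-21.

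One transcript was kept per symbol, the longest listed. For 43 of the 50 members only 1 was listed. The members, their classes and the other lists were chosen with earlier results of these data known. Counts were tested with edgeR 4.0.16 (quasi-likelihood test, TMM, filterByExpr with a minimum count of 10 and a total of 15, prior count 2, Benjamini-Hochberg over all genes tested, threshold 0.05) in R 4.3.3, with the 10 libraries of an experiment in 1 fit and no replicate block, since the duplicate numbers were not found to pair libraries. The comparison of experiments used 1 fit of all 20 libraries and was added after seeing the data. The alternatives were DESeq2 1.42.0, limma 3.58.1 on log2(RPKM + 1) with a pseudocount of 1, no filter, the compared groups alone, a replicate block, library sizes from mapped reads, the most-read transcript, and each library left out. The fit was tested on simulated data: of 200 genes changed by 0.5 on the log2 scale, 69.0% of those tested were recovered in experiment 1 (13711 genes in the step) and 37.2% in experiment 2 (13365 genes). Totals of reads on genes limit counting precision, and the spread between duplicates gave a biological coefficient of variation of 4.32% in experiment 1 and 8.80% in experiment 2.

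Members are named with values in every library by a rule: 23 core members of the particles and enzymes; in each class the member with the largest absolute change after 1 nM and after 100 nM 21h10; the 3 largest rises and falls between the cytokines at each dose; and members that moved against the rest. Genes outside the set are named where they had the largest rise or fall of their list. Members named for other reasons (Noc4l, Nob1, Utp14a, Ddx10, Ddx18, Nle1, Nop16 and Noc2l) were chosen after their values were seen. Promoters came from RefSeq (GRCm38.p6), and matches between transcripts from BLAST 2.17.0 against GENCODE transcripts at 97% identity over at least 100 bases. No column of other samples was present. Some single genes of the marker and pathway lists are not reported here.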

Additional observations from a re-analysis of the deposited data

Results flagged for a closer look

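The effect of 21h10 against mIL-21 differed between 100 pM and 1 nM in 25 of the 50 members of experiment 1, by the test of that difference itself (edgeR quasi-likelihood test). All of them were higher with 21h10, relative to mIL-21, at 1 nM than at 100 pM, while 8.34% of all genes were called in that direction and 10.0% in the other. The difference was 0.99 on the log2 scale in Rrp12, 0.70 in Gnl3, 0.69 in Heatr1, 0.63 in Utp20, 0.59 in Nolc1 and 0.55 in Nop58. In Rrp12 it came from the libraries with 1 nM 21h10, which lay above all other cytokine libraries, while Gnl3 changed sides, below mIL-21 at the low dose and above it at the high one.

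The mean response to cytokine differed between the experiments in 49 of the 50 members, by a test in 1 fit of all libraries that was added after the data had been seen. In that test 47 members were lower in experiment 1 and 2 higher, beside 31.2% and 33.5% of all 14530 genes. The response in experiment 1 minus that in experiment 2 was -2.83 in Nolc1, -2.76 in Ftsj3, -2.65 in Gnl3 and -2.53 in Utp20, and it was positive, at 0.33 in Npm1 and 0.57 in Polr1c. The unstimulated cells of the experiments differed too, since the members took 1.496% and 1.47% of the reads on genes in experiment 1 and 0.870% and 0.974% in experiment 2, and dose, cells and experiment cannot be told apart.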

How the results depend on the processing

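The members' falls in experiment 1 and the difference between the experiments kept their counts within 1.5 times under every alternative run. Of all counts under alternatives that leave out no library, 125 stayed within that range, 7 rose and 7 fell by more. For 21h10 against mIL-21 at 1 nM, where 19 members had passed, limma gave 11, the compared groups alone 9 and mapped-read sizes 10. Among all genes there, limma called 1678 higher and 2477 lower of 11159, and mapped-read sizes 2038 higher and 2918 lower of 13974. For the dose step of 21h10 in experiment 1 (16), limma and mapped-read sizes each gave 10. In that step limma called 1613 genes higher and 2759 lower of 11159, and mapped-read sizes 2030 higher and 3308 lower of 13974. For 100 nM mIL-21 against unstimulated cells (17), limma gave 28 and mapped-read sizes 29. Of all genes, limma called 4478 lower and 1507 higher of 10813, and mapped-read sizes 5198 lower and 1821 higher of 13772. Between the cytokines at 10 nM (0), the fit without a filter gave 1. At 100 nM (5), limma gave 0, the compared groups alone 11 and mapped-read sizes 2. Here limma called 252 genes higher and 568 lower of 10813, and mapped-read sizes 403 higher and 934 lower of 13772. For the step of 21h10 from 10 to 100 nM (0), DESeq2 and the fit without a filter each gave 3 and the compared groups alone 7. In this step DESeq2 called 384 genes higher and 565 lower of 12437. Shares of all genes for the compared groups alone, the fit without a filter and fits with a library left out are not reported here. The causes of these changes were not tested. Leaving out 1 library at a time gave 10 to 21 for the dose step of 21h10 in experiment 1 (10 without duplicate 1 of 100 pM 21h10), 15 to 24 for 10 nM 21h10 against unstimulated cells (15 without its duplicate 2), 16 to 30 for 100 nM 21h10 (16 without its duplicate 2 and 17 without unstimulated duplicate 1), 0 to 7 between the cytokines at 100 nM (at most 2 without any library of 100 nM mIL-21, 10 nM 21h10 or 100 nM 21h10) and 0 to 4 for the step from 10 to 100 nM 21h10 (4 without either unstimulated library, 2 and 1 without those of 10 nM mIL-21). Those of the other comparisons stayed within 1.5 times. With the replicate block the counts were 17 at 1 nM (19 without it), 29 after 100 nM 21h10 (27) and 6 between the cytokines at 100 nM (5), and no other count moved by more than 1. The correlation of the deviations of same-numbered libraries was over 0.1 in 0 of 10 pairs of groups in experiment 1 (-0.06 to 0.03) and in 3 of 10 in experiment 2 (-0.17 to 0.23), so the numbers were not taken to pair libraries. With 2 libraries a group and a wider spread in experiment 2, fewer small differences could be detected there than in experiment 1.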
